A study of Mus musculus with 6 samples.

Results

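The genes described here are 40 interferon response genes, picked by name from a table that also holds 23958 other genes, measured in mouse blood stem cells with and without inositol-trisphosphate 3-kinase B (Itpkb). They are targets of type I interferons (interferon alpha and beta) and of type II interferon (interferon gamma), and all 40 names were found in the table. By role they are 4 transcription factors (Irf1, Irf7, Irf9, Stat2), 3 cytosolic RNA sensors (Ifih1, Ddx58, Dhx58) and 21 antiviral effectors and regulators (Isg15, Usp18, Ifit1, Ifit2, Ifit3, Mx1, Mx2, Oas1a, Oas2, Oas3, Oasl1, Oasl2, Rsad2, Bst2, Ifi35, Ifi44, Parp9, Parp14, Xaf1, Trim30a, Rtp4). The other members are 7 immune GTPases (Gbp2, Gbp3, Gbp7, Ifi47, Igtp, Irgm1, Irgm2) and 5 genes of antigen processing (Psmb8, Psmb9, Psmb10, Tap1, Tapbp). The rule that picks them is a list of names, with no threshold on a value.

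RNA was sequenced from LT-HSC (long-term haematopoietic stem cells), the cells at the top of the blood hierarchy, sorted from bone marrow as LSK CD34-CD150+CD48-Flk2- cells after lineage depletion. Both groups were on the C57BL/6 background: 3 libraries came from Itpkb-/- mice carrying the ENU-induced Ms T-less allele, and 3 from wild-type littermates without it. Each library held 10000 or more sorted cells from a pool of 4 age-matched mice, so the 3 of a genotype are biological replicates of pools, while differences between single mice of a pool were not measured. A single mutant line stands for the loss of the gene, and no label gives the age of the mice. Itpkb phosphorylates inositol trisphosphate, a calcium-releasing messenger, and so makes inositol tetrakisphosphate.

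As background, type I interferons bind the receptor made of Ifnar1 and Ifnar2 and activate the complex ISGF3, which holds Stat2 and Irf9 and binds the interferon-stimulated response element (ISRE). Type II interferon binds Ifngr1 and Ifngr2 and activates Stat dimers, which bind the gamma-activated site (GAS) and induce Irf1, a factor that itself binds ISRE-like sites. In blood stem cells interferons are known to drive quiescent cells into cycle, and a basal level of interferon target expression is known in stem cells that are not infected.

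Both elements were looked for in the promoter of each member, because the factors described above bind them. The windows were those of RefSeq on build GRCm38.p6, 300 bases each, with 250 bases before and 50 after an annotated start. The core of the ISRE was searched as GAAA, any 2 bases and GAAA again, and the GAS as TTC, any 3 bases and GAA. Both were read on either strand, and neither spelling contains the other. A window was given for 32 of the 40 members. The ISRE core stood in 17 of these 32 (53.1%), against 1079 of 27025 genes of the whole promoter table (3.99%). The GAS stood in 9 of 32 (28.1%), against 2582 genes of the table (9.55%), and 5 members held both (15.6%, against 0.614%). By role, the ISRE core was found in 6 of 7 GTPases, 8 of 14 effectors with a window, 2 of 2 sensors, 1 of 4 factors (Stat2) and 0 of 5 antigen processing genes. The GAS was found in 3 GTPases, 4 effectors, Irf1 and Psmb8. Neither element was found in 11 of the 32 members, among them 4 of the 5 antigen processing genes. Sites with another spelling or outside the window were not searched for, so a missing match does not show that a gene lacks the element. These matches are a description of the letters in the window and show no binding.

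The stretches below show how these elements are arranged in the called members Irf1, Igtp and Gbp3, in Irgm2, the neighbour of Igtp, and in Isg15, an effector that did not pass the test. Each runs 5′ to 3′ on the strand of its gene and ends just before the annotated start, or, for Gbp3, where an exon of an earlier-starting transcript begins. Capitals mark the GAS in Irf1, the GAS followed by the ISRE core in Igtp and Irgm2, and overlapping ISRE cores in Gbp3 (2, on the opposite strand) and Isg15 (3).
Irf1, chr11:53769864-53770013, plus strand: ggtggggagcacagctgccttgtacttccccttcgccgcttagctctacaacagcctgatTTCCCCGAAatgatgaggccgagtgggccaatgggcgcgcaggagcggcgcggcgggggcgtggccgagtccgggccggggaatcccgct
Igtp, chr11:58199406-58199555, plus strand: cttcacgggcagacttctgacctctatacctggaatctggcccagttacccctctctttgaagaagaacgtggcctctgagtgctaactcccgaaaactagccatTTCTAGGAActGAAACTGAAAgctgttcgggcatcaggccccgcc
Irgm2, chr11:58214827-58214976, plus strand: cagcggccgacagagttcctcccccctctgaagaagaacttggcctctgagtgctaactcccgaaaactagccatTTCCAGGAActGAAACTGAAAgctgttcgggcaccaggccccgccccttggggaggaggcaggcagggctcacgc
Gbp3, chr3:142559894-142560025, plus strand: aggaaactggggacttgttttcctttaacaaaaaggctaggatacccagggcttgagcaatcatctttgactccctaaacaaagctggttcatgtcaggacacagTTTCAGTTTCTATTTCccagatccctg
Isg15, chr4:156200819-156200968, minus strand: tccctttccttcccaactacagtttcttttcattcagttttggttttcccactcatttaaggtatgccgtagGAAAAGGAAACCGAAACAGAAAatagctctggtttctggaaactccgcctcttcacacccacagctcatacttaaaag
In both Igtp and Irgm2 the GAS and the ISRE core stood 2 bases apart. Laid over each other at a fixed offset, without gaps, their full windows were identical at 184 of 270 bases (68.1%). A long stretch further upstream is the same in both windows but lies at a different offset. It was therefore compared out of register, and the share given understates how alike the windows are. The GAS of Irf1 began 90 bases before the start.

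The values are normalized CPM, the authors' read counts scaled per library, and 1 read was worth 0.131 to 0.249 of this unit. Values are given in the order of libraries 1 to 3, the Itpkb-/- (knockout) libraries first. Library depth ran from 4024203 to 7470329 reads, and the shallowest was wild-type library 1. Itpkb itself was measured at 10.2, 14.0 and 18.2 normalized CPM (knockout) against 22.1, 23.6 and 25.1 (wild type), without overlap, a log2 difference of -0.73 (SE 0.24, n = 3 each). By limma its adjusted p was 0.172, and 0.0541 once the library number was a block. Of the limma fits that left out 1 library, it passed only without Itpkb-/- library 3 (0.118). In the 5 others its adjusted p was 0.269 to 0.431. By edgeR (0.166) and DESeq2 (0.184) it did not pass. The 9 stem cell markers were all detected, with summed levels of 1405 to 1875 normalized CPM (knockout) against 2266 to 2743 (wild type). By limma 5 of the 9 were called lower in Itpkb-/- cells at an adjusted p of at most 0.15, against 3.24% of all genes. Granulocyte markers summed to 6140, 18034 and 899 in Itpkb-/- and to 3544, 2581 and 684 in wild-type libraries, monocyte markers to 283 to 929 and 412 to 635. Markers of plasmacytoid dendritic cells, a main source of type I interferon, summed to 0.524 to 2.18 and 0.559 to 2.99, respectively, with Klk1 at 0 in every library. Markers of T and NK cells summed to 89.1 to 281 and 60.9 to 110, nearly all of it Nkg7, with Cd3g and Cd8a at 0 in every library. Megakaryocyte markers summed to 740, 615 and 1326 against 476, 613 and 636. Of these 5 markers 1 was called higher, beside 2.27% of all genes (Itga2b, adjusted p = 0.00831 in limma). Erythroid markers summed to 374, 541 and 94.9 against 236, 219 and 114, with 1 of 5 called higher (Epor, adjusted p = 0.123 in limma), beside the same 2.27%. In such pooled RNA, fewer cells of a type and less RNA per cell cannot be told apart, and the part of these marker differences in the results that follow was not tested.

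Calls among the interferon response genes came from 3 of the 5 roles: 2 of 5 antigen processing genes, 2 of 7 immune GTPases and 1 of 4 factors, Irf1, rose in Itpkb-/- LT-HSC. None of the sensors or antiviral effectors was called. Of the 40 members 39 were abundant enough to test, and 5 were called higher (Irf1, Igtp, Gbp3, Tap1, Psmb9), at a limma adjusted p of at most 0.15 over all 12008 genes tested. That is 12.8% of the members tested, against 2.27% of all genes tested. No member was called lower, against 3.24% of all genes, and 5.5% of all genes were called in either direction. At an unadjusted p under 0.05 there were 10 of the 39 members, against 1858 of all 12008 genes tested. At an adjusted p of at most 0.05 only Igtp was called, against 182 of all genes tested. The median log2 difference of the tested members was 0.04, with 24 above 0 and 15 below, beside a median of 0.00 over all genes tested. The groups did not overlap in 12 members (30.8%, against 21.3% of all genes): 9 had every Itpkb-/- library above every wild-type library (10% of all genes) and 3 had every one below (11.3%).

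**Figure D1:**
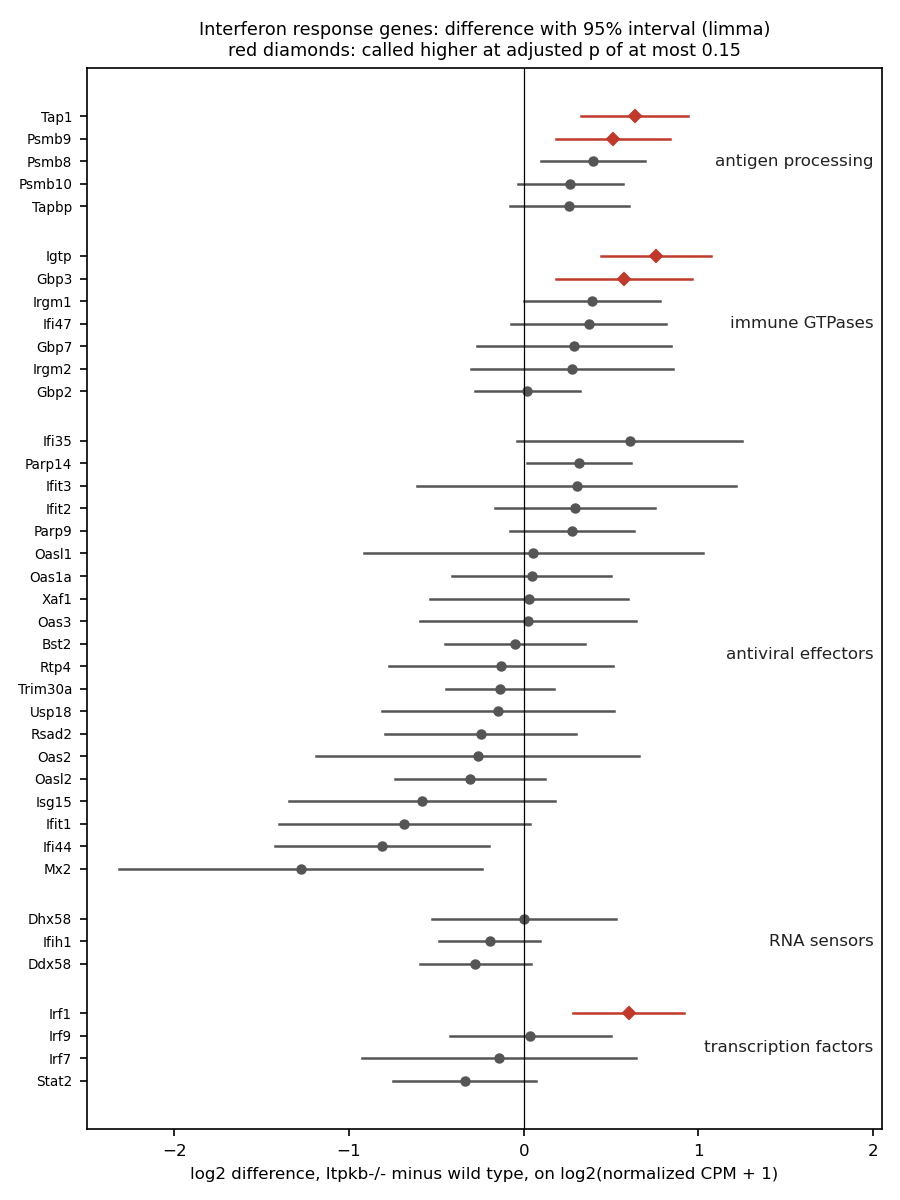
Log2 difference (Itpkb-/- minus wild type, on log2(normalized CPM + 1)) of the 39 tested members on the horizontal axis, with 95% intervals from limma over 3 libraries a genotype, members grouped by role on the vertical axis. Red diamonds mark the 5 members called higher; all 5 antigen processing genes and all 7 GTPases lie right of 0 (Gbp2 turns below 0 with plain CPM scaling), while 9 of 20 effectors lie right and 11 left of it.

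The same counts were made with the library number as a block, since libraries with the same number deviated together. In that fit 9 members were higher (9.15% of all genes) and 2 lower (8.97% of all genes). The added members were Psmb8, Ifi47, Irgm1 and Parp14 among the higher ones and Mx2 and Ifi44 among the lower ones. edgeR's quasi-likelihood test on recovered reads called the same 5 members higher (2.45% of all genes) and none lower (3.58%; 6.02% in either direction). DESeq2 called 5 higher (3.26%) and Ifi44 lower (3.6%; 6.86% in either direction). Each of the 5 limma calls was lost without wild-type library 3, a fit that called 0 members and 0.616% of all genes.

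Of the 4 transcription factors 1 passed the test, Irf1, which binds ISRE-like sites and induces class I genes. Irf1 (chromosome 11, 53770014 to 53778374, plus strand, build mm10) was at 64.5, 64.2 and 67.6 normalized CPM (knockout) against 40.8, 43.9 and 43.7 (wild type). The groups did not overlap, and the spread within each was small: 65.4 ± 1.9 against 42.8 ± 1.8 (SD, n = 3 each), 1.53-fold. The log2 difference was 0.60 (SE 0.14; limma, adjusted p = 0.0717). The call was kept without Itpkb-/- library 1 (0.0983) or 3 (0.146). It was lost without Itpkb-/- library 2 (0.164) and without wild-type library 1 (0.183), 2 (0.168) or 3 (0.259).

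Stat2, a subunit of ISGF3, was at 41.8, 59.7 and 60.5 normalized CPM (knockout) against 79.3, 61.0 and 63.9 (wild type). All Itpkb-/- values lay below all wild-type values, but by a margin that did not pass the test (log2 difference -0.34, SE 0.19; limma, adjusted p = 0.417). Irf9, the DNA-binding part of ISGF3, was at 39.8 to 59.0 in Itpkb-/- and 36.5 to 56.7 in wild-type libraries. Irf7, which amplifies type I interferon production, was at 13.1 to 22.4 against 13.0 to 36.3. For both genes the groups overlapped, and the highest Irf7 value was that of wild-type library 1.

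Upstream of these factors 1 chain of the type I receptor rose. Ifnar2, a chain of the type I receptor, was at 105, 111 and 95 normalized CPM (knockout) against 76.8, 74.4 and 72.4 (wild type) (log2 difference 0.47, SE 0.13; limma, adjusted p = 0.12). Its partner chain Ifnar1 was at 69.9, 51.3 and 67.4 against 65.9, 63.7 and 57.2 (difference 0.00, SE 0.16, 95% interval -0.36 to 0.36). The libraries of the genotypes separated for Ifnar2 and overlapped for Ifnar1, and the difference between the chains was not tested. Without Itpkb-/- library 2 (adjusted p = 0.31) and without wild-type library 1 (0.22), 2 (0.244) or 3 (0.367) Ifnar2 was not called.

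Ifngr1, the ligand-binding chain of the type II receptor, was at 150, 162 and 72.7 normalized CPM (knockout) against 85.0, 77.0 and 62.4 (wild type). Itpkb-/- libraries 1 and 2 were high and library 3 fell among the wild-type values (log2 difference 0.70, SE 0.26; limma, adjusted p = 0.232, with the block 0.0094). Ifngr2, the signalling chain, was at 11.0 to 15.2 against 12.4 to 18.2 (difference -0.07, SE 0.25; 95% interval -0.62 to 0.49).

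Of 6 feedback inhibitors 1 rose (2.27% of all genes). In the limma fit with the block 2 were higher (9.15% of all genes), Socs3 and Ptpn6, a phosphatase (Ptpn6 adjusted p = 0.0274). Socs3, an inhibitor induced by cytokine receptors, was at 24.2, 12.3 and 23.7 normalized CPM (knockout) against 7.71, 3.59 and 4.47 (wild type), 3.82-fold (log2 difference 1.75, SE 0.34; limma, adjusted p = 0.0358). Its call was lost without wild-type library 3 (0.195) and without both libraries numbered 3 (0.286). Socs1, the inhibitor most tied to interferon signalling, was near the detection limit, with means of 2.33 and 1.19 (adjusted p = 0.565).

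Interferon transcripts themselves were at or near 0. Of 11 interferon genes in the table (alpha, beta, epsilon, kappa, gamma and zeta), 9 had 0 reads in every library, Ifnk had at most 4 reads in a library and Ifnz at most 5. A count of 0 allows up to 3 reads, or 0.393 to 0.746 normalized CPM in these libraries. These values concern the RNA of the sorted cells only.

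The RNA sensors did not pass the test. Ddx58, which encodes RIG-I, was at 95.8, 77.4 and 83.5 normalized CPM (knockout) against 113, 92.7 and 106 (wild type). The groups overlapped slightly (log2 difference -0.28, SE 0.14; limma, adjusted p = 0.393). Ifih1, which encodes MDA5, was at 77.5 to 82.6 in Itpkb-/- and 86.3 to 97.7 in wild-type libraries without overlap (difference -0.19, SE 0.13; adjusted p = 0.533). Dhx58, which encodes LGP2, was at 17.2 to 26.3 against 16.9 to 25.4. Of 14 further genes of nucleic acid sensing that were tested, 0 were called by limma (5.5% of all genes). By edgeR (6.02%) or DESeq2 (6.86%) 0 were called. An unadjusted p under 0.05 was found in 3 of the 14, against 1858 of all 12008 genes tested. With the block Myd88, the adaptor of Toll-like receptors, was higher (difference 0.71, adjusted p = 0.0365 in limma), in a fit that called 9.15% of all genes higher.

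The antiviral effectors, most of them classical type I targets, did not pass the test. Of the 20 tested, 0 were called by limma (5.5% of all genes), 0 by edgeR (6.02%) and 1 by DESeq2 (6.86%). An unadjusted p under 0.05 was found in 3 of the 20, against 1858 of all 12008 genes tested. Their median log2 difference was -0.09, with 9 above 0 and 11 below. With the block 1 was higher (9.15% of all genes) and 2 were lower (8.97%). Most of them shared 1 feature, a high value in 1 wild-type library.

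Wild-type library 1 held the highest value of all 6 libraries for 13 of the 20 effectors (65%), against 19.5% of all genes tested. Its mean deviation over the effectors was 0.45 on the log2 scale, while the other 5 libraries lay between -0.15 and -0.01. Summed effector levels were 805, 714 and 779 normalized CPM (knockout) against 985, 706 and 744 (wild type). Without wild-type library 1 the median difference of the effectors was 0.17, with 12 of 20 above 0, and that of all 39 tested members was 0.26 in place of 0.04. The effectors' median was 0.00502 without Itpkb-/- library 2, with 10 above 0 and 10 below, and 0.06 without both libraries numbered 1, with 13 of 20 above 0. In wild-type library 1 granulocyte markers summed to 3544 against 2581 and 684 in the other wild-type libraries, monocyte markers to 635 against 513 and 412, and plasmacytoid dendritic cell markers to 1.49 against 2.99 and 0.558. Their part in the effector levels was not tested.

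**Figure D2:**
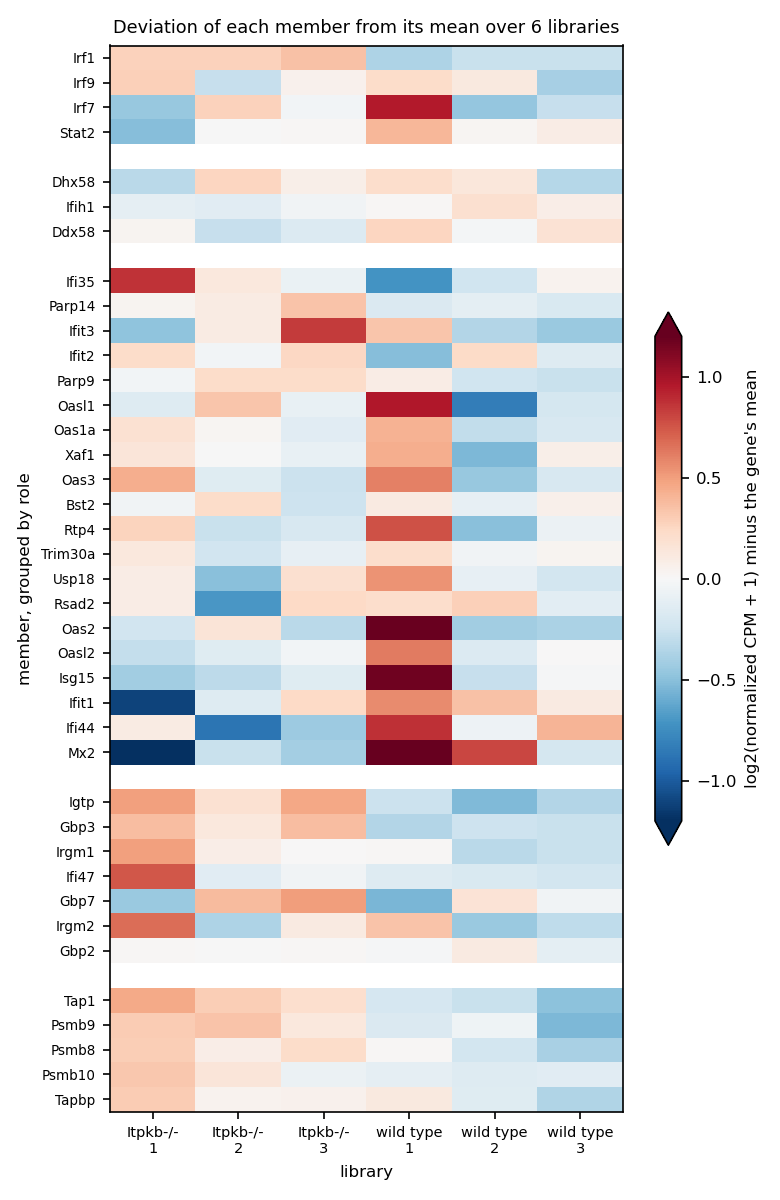
Each row is 1 tested member and each column 1 library; the colour is log2(normalized CPM + 1) minus the mean of that gene over the 6 libraries, with red above and blue below. Wild-type library 1 is red for most effectors in the middle block, and the 3 Itpkb-/- libraries are red for most GTPases and antigen processing genes at the bottom.

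Isg15, a ubiquitin-like modifier, and Oas2, which makes the activator of RNase L, show the pattern and were picked after their values were seen. Isg15 was at 10.5, 11.3 and 12.8 normalized CPM (knockout) against 33.3, 11.7 and 14.1 (wild type) (log2 difference -0.58, SE 0.35; limma, adjusted p = 0.462). Oas2 was at 6.10, 8.24 and 5.64 against 17.9, 5.23 and 5.40 (difference -0.26, SE 0.42; adjusted p = 0.828). In both genes the remaining 5 libraries lay close together, and wild-type library 1 stood above them.

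Ifi44 and Mx2 were the effectors with the lowest values in Itpkb-/- cells relative to wild type. Ifi44, an interferon-induced cytoplasmic protein, was at 48.6, 24.2 and 33.2 normalized CPM (knockout) against 84.1, 43.3 and 60.3 (wild type). Each Itpkb-/- library lay below the wild-type library of the same number, although the groups overlapped (log2 difference -0.81, SE 0.28; limma, adjusted p = 0.186). With the block the difference passed (adjusted p = 0.00353), as it did in DESeq2 (0.0916). Mx2, a dynamin-like antiviral GTPase, was at 0.218, 1.40 and 1.18 against 6.22, 4.04 and 1.49, from 1 to 27 reads a library (difference -1.28, SE 0.47; adjusted p = 0.219, with the block 0.105). Its relative Mx1 was too low to test, at 0 to 0.777 against 0.186 to 1.99 and at most 8 reads.

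Parp14, a mono-ADP-ribosyltransferase, went the other way. It was at 106, 111 and 131 normalized CPM (knockout) against 91.5, 95.1 and 91.0 (wild type), without overlap (log2 difference 0.32, SE 0.14; limma, adjusted p = 0.295, with the block 0.114). Trim30a, a negative regulator of Toll-like receptor signalling, was at 144, 113 and 123 against 153, 129 and 135 (difference -0.14, SE 0.14; adjusted p = 0.706). The Ifit genes, whose products bind viral RNA, did not move together: the differences were -0.68 for Ifit1, 0.29 for Ifit2 and 0.30 for Ifit3, with adjusted p of 0.348, 0.554 and 0.791 (limma). The other effectors had log2 differences from -0.31 (Oasl2) to 0.61 (Ifi35), all with overlapping groups.

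The 7 immune GTPases are strongly induced by interferon gamma and belong to families with roles in defence against intracellular pathogens. Of the 7 genes, 2 rose (2.27% of all genes) and 5 did not pass the test. All 7 differences were above 0, with a median of 0.37, though Gbp2 turned below 0 with plain CPM scaling, and 1 of the 7 did without wild-type library 3 (-0.03) or without both libraries numbered 3 (-0.04). With the block 4 of the 7 were higher (9.15% of all genes). Their summed levels were 1130, 795 and 895 normalized CPM (knockout) against 741, 694 and 684 (wild type), so the groups did not overlap. Itpkb-/- library 1 held the highest value for 4 of the 7, against 19.4% of all genes tested.

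Igtp (Irgm3; chromosome 11, 58199556 to 58207591, plus strand, build mm10), whose promoter with adjacent GAS and ISRE is printed above, was at 166, 134 and 164 normalized CPM (knockout) against 99.0, 81.5 and 92.5 (wild type). The lowest Itpkb-/- value stood well above the highest wild-type value: 155 ± 18.0 against 91.0 ± 8.9 (SD, n = 3 each), 1.70-fold. The log2 difference was 0.76 (SE 0.14; limma, adjusted p = 0.032), and of the fits that left out 1 library only that without wild-type library 3 lost it (0.178). It was also lost without both libraries numbered 3 (0.277).

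Irgm2, whose promoter carries the same arrangement, was at 182, 87.8 and 123 normalized CPM (knockout) against 144, 83.4 and 92.0 (wild type). These groups overlapped, with both libraries numbered 1 high (log2 difference 0.28, SE 0.26; limma, adjusted p = 0.675, with the block 0.16). The annotated exons of Igtp and Irgm2 share 162 bases, so a small part of their reads could be counted for either gene. The test of a difference between these 2 neighbours was not made.

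Gbp3 (chromosome 3, 142560026 to 142573209, plus strand, build mm10), a guanylate-binding protein, was at 39.4, 33.3 and 39.4 normalized CPM (knockout) against 23.6, 25.4 and 25.1 (wild type). The groups were well apart, at 37.4 ± 3.6 and 24.7 ± 0.96 (SD, n = 3 each), 1.51-fold. The log2 difference was 0.57 (SE 0.18; limma, adjusted p = 0.145). This call sat at the limit and was lost whichever library was left out: 0.199, 0.217 and 0.27 without Itpkb-/- libraries 1, 2 and 3, and 0.291, 0.248 and 0.362 without wild-type libraries 1, 2 and 3. It was also lost with a pseudocount of 4 (0.1501), without the filter on low values (0.177) and with plain CPM scaling (0.182).

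Ifi47 (Irg47), an immunity-related GTPase, was at 510, 276 and 295 normalized CPM (knockout) against 274, 268 and 262 (wild type). The groups did not overlap, but Itpkb-/- library 2 lay only a few units above the highest wild-type value, and library 1 stood far above the rest (log2 difference 0.37, SE 0.20; limma, adjusted p = 0.413, with the block 0.0978). Irgm1, a regulator that guards the cell's own membranes and is known to be needed by stem cells under interferon stress, was at 85.6, 64.0 and 60.7 against 60.9, 48.0 and 49.9 (difference 0.39, SE 0.18; adjusted p = 0.321, with the block 0.0867). Gbp7 was at 70.1, 125 and 136 against 65.2, 107 and 93.1, and Gbp2 at 74.9 to 76.0 against 69.1 to 80.7, with adjusted p of 0.643 and 0.963. For Irgm1 and Gbp7 each Itpkb-/- library lay above the wild-type library of its number.

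Relatives of these GTPases outside the 40 genes were read from the list of other interferon targets. Iigp1, which loads onto parasite vacuoles, was at 65.6, 47.2 and 54.3 normalized CPM (knockout) against 43.5, 20.6 and 21.2 (wild type), 1.96-fold (log2 difference 1.02, SE 0.27; limma, adjusted p = 0.102). Tgtp1 and Tgtp2, near-identical copies between which reads could be split, had differences of 0.48 (SE 0.21) and 0.52 (SE 0.17), with adjusted p of 0.299 and 0.179 (limma) and of 0.013 and 0.00259 with the block. Gbp6 was at 12.4, 9.95 and 13.9 against 32.6, 23 and 17.3 and fell (difference -0.92, SE 0.27; adjusted p = 0.127). The wider GTPase families thus held genes called in either direction. Iigp1 lost its call without Itpkb-/- library 1 (0.155) and without wild-type library 2 (0.244) or 3 (0.347), and when low genes were not filtered (0.16). Gbp6 lost its call without Itpkb-/- library 2 (0.31) and without wild-type library 1 (0.324), 2 (0.239) or 3 (0.206), and when low genes were not filtered (0.196), and 29.0% of its exon bases are shared with another annotated gene.

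The guanylate-binding genes divided by chromosome, a split noticed after their values were seen. The 4 tested genes on chromosome 3 (Gbp2, Gbp3, Gbp5, Gbp7) had differences of 0.02 to 0.57, and the 5 on chromosome 5 (Gbp4, Gbp6, Gbp8, Gbp9, Gbp10) had differences of -0.92 to -0.53. Of these 9 only Gbp3 and Gbp6 passed the test, so the direction of the rest is that of the measured means. Gbp6 and Gbp10 share 29.0% and 46.3% of their exon bases with the same other annotated gene. Gbp4, Gbp8 and Gbp9 share 60 or 61 exon bases with one another. Reads could be split there, so the 5 differences on chromosome 5 may not be independent.

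**Figure D3:**
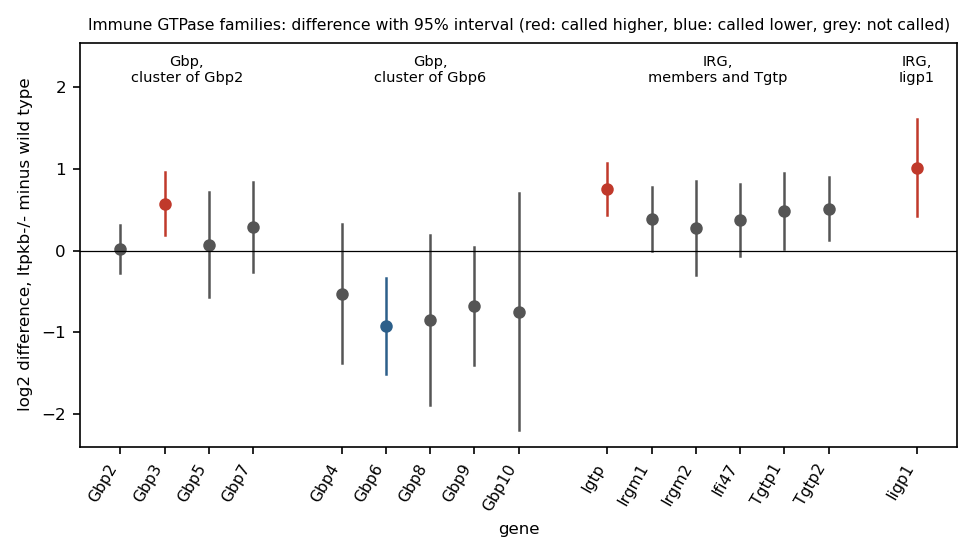
Log2 difference (Itpkb-/- minus wild type, on log2(normalized CPM + 1)) on the vertical axis with 95% intervals from limma (3 libraries a genotype) for guanylate-binding genes of both clusters and immunity-related GTPases, 1 point a gene. Gbp3, Igtp and Iigp1 (red) were called higher and Gbp6 (blue) lower; all 5 genes of the Gbp6 cluster lie below 0.

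Antigen processing for MHC class I had 2 of 5 members called higher, beside 2.27% of all genes. These 5 genes supply peptides to class I molecules: Psmb8, Psmb9 and Psmb10 are the catalytic subunits of the immunoproteasome, Tap1 is part of the peptide transporter and Tapbp (tapasin) bridges it to class I. Of the 5, 2 rose and 3 did not pass the test, and with the block 3 were higher (9.15% of all genes). All 5 differences were above 0, also with plain CPM and DESeq2 scaling, with a median of 0.40. In 4 of the 5 every Itpkb-/- library was above every wild-type library (10% of all genes). Summed levels were 995, 901 and 866 normalized CPM (knockout) against 758, 708 and 606 (wild type). Wild-type library 3 was the lowest of all 6 for 4 of the 5 genes, against 1709 of all 12008 genes tested.

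Tap1 (chromosome 17, 34187553 to 34197225, plus strand, build mm10) was at 153, 137 and 128 normalized CPM (knockout) against 96.7, 92.7 and 79.1 (wild type). Means were 139 ± 12.4 and 89.5 ± 9.2 (SD, n = 3 each), 1.56-fold, without overlap. The log2 difference was 0.63 (SE 0.14; limma, adjusted p = 0.0506), and of the fits that left out 1 library only that without wild-type library 3 lost the call (0.264). It was also lost without both libraries numbered 2 (0.263) or 3 (0.315).

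Psmb9 (chromosome 17, 34181987 to 34187764, minus strand, build mm10), which lies head to head with Tap1, was at 241, 247 and 213 normalized CPM (knockout) against 173, 188 and 134 (wild type). The groups did not overlap, at 234 ± 18.1 and 165 ± 27.9 (SD, n = 3 each), 1.42-fold, a log2 difference of 0.51 (SE 0.15; limma, adjusted p = 0.125). It was called without Itpkb-/- library 3 (0.128). The call was lost without Itpkb-/- library 1 (0.154) or 2 (0.298) and without wild-type library 1 (0.22), 2 (0.16) or 3 (0.414), and also without the filter on low values (0.168). The exons of Tap1 and Psmb9 share 212 bases on opposite strands, and the libraries do not mark strand, so reads there cannot be assigned to one of them.

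Psmb8 was at 292, 252 and 278 normalized CPM (knockout) against 240, 204 and 182 (wild type). All Itpkb-/- values were higher, and the log2 difference of 0.40 (SE 0.14) did not pass in limma (adjusted p = 0.187) but did with the block (0.0247). An annotated antisense gene shares 498 of its exon bases. Psmb10 was at 127 to 167 against 119 to 124 without overlap, and Tapbp at 118 to 142 against 89.2 to 124, with differences of 0.27 and 0.26 (adjusted p = 0.388 and 0.461).

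**Figure D4:**
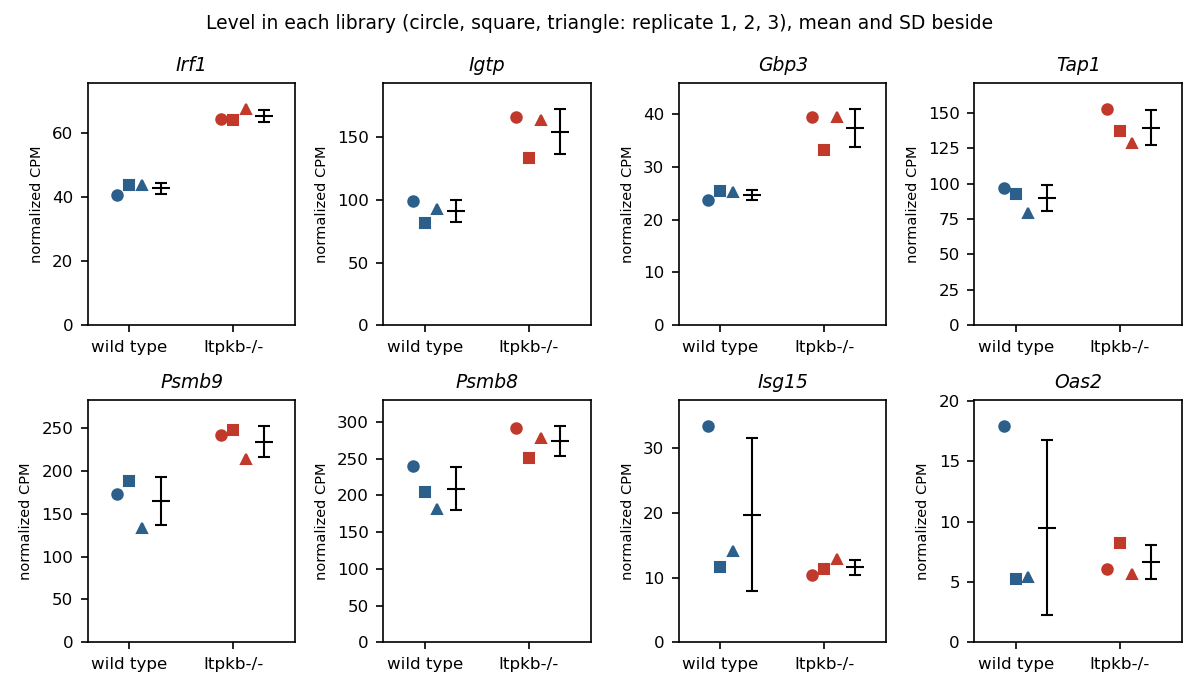
Level in normalized CPM (vertical axis, from 0) of Irf1, Igtp, Gbp3, Tap1, Psmb9, Psmb8, Isg15 and Oas2 in each library, with mean and SD of 3 beside the points (wild type blue, Itpkb-/- red; circle, square and triangle are libraries 1, 2 and 3). The first 6 genes have no overlap between genotypes, while for Isg15 and Oas2 only wild-type library 1 (33.3 and 17.9) stands out.

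The constitutive subunits that the immunoproteasome subunits replace were measured for comparison. Psmb5, the counterpart of Psmb8, was at 167, 162 and 134 normalized CPM (knockout) against 131, 115 and 105 (wild type) (log2 difference 0.39; limma, adjusted p = 0.213, with the block 0.0324). Psmb6, the counterpart of Psmb9, was at 159, 152 and 140 against 131, 140 and 123 (0.19; adjusted p = 0.508). Psmb7, the counterpart of Psmb10, was at 147, 157 and 135 against 112, 118 and 109 (0.37; adjusted p = 0.182, with the block 0.0423).

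So the differences of the immunoproteasome genes were set against those of their counterparts within each library, 3 comparisons added after the data were seen. The log2 ratio of Psmb9 to Psmb6 was 0.32 higher in Itpkb-/- libraries (95% interval 0.04 to 0.60), the only pair whose ratios did not overlap between genotypes. Its exact two-sided permutation p was 0.1, the smallest that 3 against 3 libraries allow, and 0.3 after Benjamini-Hochberg adjustment over the 3 pairs. The ratio of Psmb8 to Psmb5 differed by 0.00 (95% interval -0.35 to 0.35; exact permutation p = 1). The ratio of Psmb10 to Psmb7 differed by -0.11 (95% interval -0.38 to 0.17; exact permutation p = 0.4, adjusted 0.6).

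Of 15 further class I presentation genes 1 rose (2.27% of all genes), 0 fell (3.24%) and 14 did not pass the test. Still, 14 of the 15 differences were above 0 (13 with plain CPM scaling), with a median of 0.20. H2-Q7, a nonclassical class I gene, was at 242, 296 and 285 normalized CPM (knockout) against 186, 195 and 186 (wild type) (log2 difference 0.53, SE 0.12; limma, adjusted p = 0.0656). It has close relatives between which reads could be split. The call was lost without Itpkb-/- library 2 (0.188) and without wild-type library 1 (0.179), 2 (0.168) or 3 (0.274). With the block 6 of the 15 were higher (9.15% of all genes). B2m, the invariant light chain of class I, was the 1 gene below 0 (difference -0.10, adjusted p = 0.844).

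The 57 tested genes of the list of other interferon targets went both ways, with 2 higher (Iigp1, Ifi30; 2.27% of all genes) and 3 lower (Gbp6, Pml, Helz2; 3.24% of all genes) and a median of -0.05. With the block 8 were higher and 6 lower, where 9.15% and 8.97% of all genes were. Ifi30, a lysosomal thiol reductase of antigen processing, was at 16.8, 16.3 and 11.3 normalized CPM (knockout) against 8.95, 6.43 and 6.33 (wild type) (log2 difference 0.93, SE 0.27; limma, adjusted p = 0.129). Pml, the scaffold of nuclear bodies and a known regulator of stem cell maintenance, was at 168, 146 and 123 against 241, 185 and 210 (difference -0.54, SE 0.15; adjusted p = 0.118). Helz2, a helicase and nuclear receptor coactivator, was at 50.8, 52.4 and 44.4 against 86.5, 61.6 and 85.3 (difference -0.64, SE 0.17; adjusted p = 0.105). In these 3 genes the genotypes did not overlap.

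Leaving out libraries ended these calls too, as did testing without the filter on low values for Ifi30 (0.212) and Pml (0.162). Of the fits that left out 1 library, Ifi30 was called only in that without Itpkb-/- library 3 (0.115), and not without Itpkb-/- library 1 (0.203) or 2 (0.33) or wild-type library 1 (0.156), 2 (0.259) or 3 (0.369). Pml was called only in that without Itpkb-/- library 1 (0.0692), and not without Itpkb-/- library 2 (0.228) or 3 (0.228) or wild-type library 1 (0.311), 2 (0.163) or 3 (0.342). Helz2 was not called without Itpkb-/- library 2 (0.173) or 3 (0.19) or wild-type library 1 (0.278) or 3 (0.367).

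Set side by side, the roles differed in which library was the highest of the 6. The antigen processing genes and the GTPases had mean deviations of 0.04 to 0.33 on the log2 scale in the Itpkb-/- libraries and of -0.38 to -0.07 in the wild-type libraries. For the factors, sensors and effectors wild-type library 1 was the highest of the 6, at 0.30, 0.16 and 0.45. Among the wild-type libraries it was also the highest for the GTPases (-0.14, against -0.21 and -0.22 in libraries 2 and 3). The same held for the antigen processing genes (-0.07, against -0.17 and -0.38). A test of the difference between roles was not made, since their members were chosen by function and are not replicates.

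**Figure D5:**
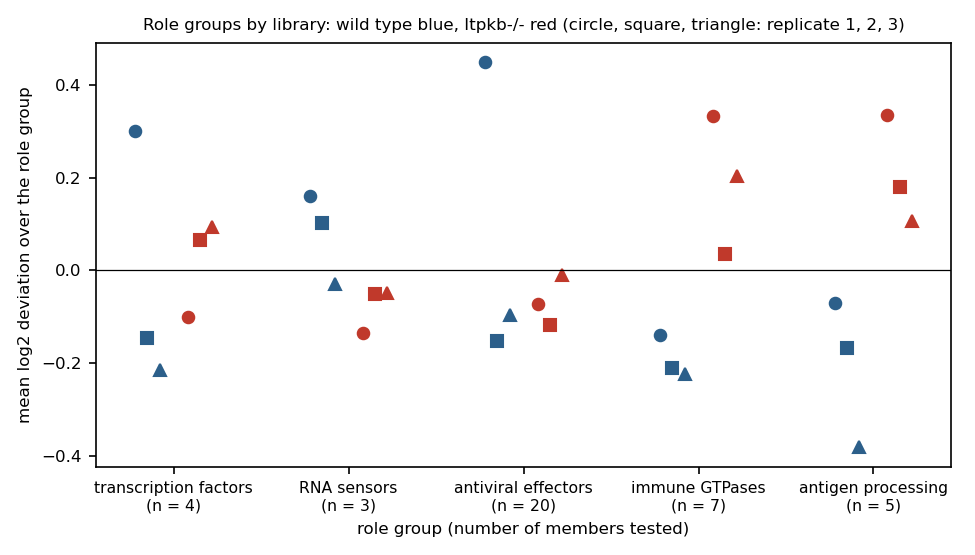
Mean over the members of a role of log2(normalized CPM + 1) minus the gene's mean over 6 libraries (vertical axis), for the 5 roles, 1 point a library (wild type blue, Itpkb-/- red; circle, square and triangle are libraries 1, 2 and 3). Itpkb-/- points lie above all wild-type points for GTPases and antigen processing, and wild-type library 1 lies highest for factors, sensors and effectors.

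Levels per length put the members in order, computed as normalized CPM divided by the exon length in kilobases and averaged over the 6 libraries. Ifi47 was highest at 127 per kilobase, followed by Psmb10 (78.8), Psmb8 (71.4), Igtp (60.8) and Psmb9 (54.5). Of the effectors Bst2 (tetherin), which holds virus particles on the cell surface, was highest at 40.6, ahead of Trim30a (32.3). At the low end stood Oas2 (1.82), Oasl1 (1.78), Mx2 (0.67) and Mx1 (0.162). Ifi47 ranged from 106 to 206 per kilobase and Psmb10 from 70.0 to 98.0 over the 6 libraries, so the first 2 ranks did not overlap. Psmb8, at 53.9 to 86.3, overlapped its neighbours in the order.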

How the data were processed

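The members, the role groups and the pathway and marker lists were chosen with earlier results of these data known. Per the submitters' processing notes, the authors used CASAVA 1.8.2, cutadapt, TopHat2 2.0.8b against build mm10, Partek and edgeR, while the series design text gives TopHat 1.4.1 and Partek 6.6. The table's deposited signal is a gene count divided by 1 factor per library by the authors, here called normalized CPM. Every value (100%) was a whole number of reads within 0.01 read, and recovered reads fed edgeR 4.0.16 and DESeq2 1.42.0 as alternatives. NuGEN Ovation libraries, made from 1 to 5 ng of RNA per the labels' protocols, do not mark strand. The floor of 3 reads covers counting error only. The intervals of differences rest on the spread between libraries of the same genotype, so they include variation between pools as well as counting error.

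The test was limma 3.58.1 (R 4.3.3) on log2(value + 1), its prior variance following the mean. Genes reaching 1 in 3 or more libraries entered, 12008 in all, and Benjamini-Hochberg adjusted p-values up to 0.15, the study's limit, were called. Fold changes on this scale understate low genes. Simulated counts (10 runs, 200 changed genes each, over 12070 genes) gave recovery of 19.4% at 1.5-fold, 68.2% at 2-fold and 96.4% at 4-fold, and 14.4% of calls were false. The simulated libraries were drawn independently, without the shared deviations of same-numbered libraries described below, so these rates need not hold for the real libraries. Libraries of a genotype differed by a chi-square per degree of freedom of 6.1 to 26.7, so none repeated another.

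Same-numbered libraries correlated in their deviations from the genotype means at 0.296, 0.268 and 0.284, and others at -0.048 or below. Deviations within a genotype add to 0 for each gene, so the negative values follow in part from the positive ones and are no separate evidence of pairs. The labels leave the meaning of the numbers unsaid. The main test has no block, as designed, and values from a second fit with the number as a block stand beside calls that it changed. Values were given in full for Itpkb, members called by limma, with the block or by edgeR, the member of each role with the highest mean, and set or called pathway genes. Some listed pathway genes are not reported here. Positions are those of GENCODE M21 (mm10) and promoters those of RefSeq (GRCm38.p6). Alternatives are in the closing section.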

Additional observations from a re-analysis of the deposited data

How the results depend on the processing

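Over 31 genes picked by the naming rule and 20 alternatives, 608 of 618 refitted differences kept their direction. The 10 others were those of Ifnar1 (-0.0322 by plain CPM scaling; -0.0785 to 0.141 over the fits that left out 1 library; -0.0367 and -0.111 when both libraries numbered 1 or 3 were dropped) and Ifngr2 (-0.164 to 0.094 over the fits that left out 1 library; 0.0187 and 0.0122 when both numbered 1 or 3 were dropped). Neither had passed the test, and the cause was not tested. Plain CPM scaling shifted the median of all genes by -0.0338 and left 20 of 39 members above 0.

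With the replicate block, which takes libraries of the same number as pairs, 2176 genes were called in place of 661, 9 members higher in place of 5 and 2 lower in place of 0, and 23 and 7 of 111 tested pathway genes outside the members (higher and lower) in place of 6 and 4. Itpkb kept its log2 difference of -0.734 with the block and passed; leaving out 1 library it ran from -0.922 to -0.535. Leaving out 1 library gave 74 to 837 genes, 0 to 4 members higher and 0 to 1 lower, 0 to 9 pathway genes higher and 0 to 4 lower, and a member median of -0.0329 to 0.263. Without both libraries numbered 1, 2 and 3 the members lower were 1, 0 and 0 and the pathway genes lower 1, 1 and 0. Without those numbered 2 or 3, 139 and 113 genes, 1 and 0 members higher and 1 and 1 pathway genes higher were called. With calls limited to 0.05 there were 182 genes, 1 member higher, 1 pathway gene higher and 0 lower. The study's fold and level limits left 387 genes and 3 pathway genes higher. Without a filter 3 members were higher and 2 pathway genes lower. DESeq2 called 1 member lower and 10 pathway genes higher. Leaving out Itpkb-/- replicate 1 or 3 raised the number of genes called to 837 and 731, and the cause of these shifts was not tested. At this depth members under about 1 normalized CPM, such as Mx1, could not be tested. In the simulated counts, drawn independently for each library, most 1.5-fold changes were missed.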
